A study of Mus musculus with 5 samples.

Results

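Mouse embryonic fibroblasts (MEF), connective tissue cells grown in DMEM with 10% serum and 2-mercaptoethanol, were compared well by well for their content of contractile transcripts. A well was kept when at least 5000 of its reads fell on genes, with repeats and mitochondrial genes set aside, which held for 64 of the 96 wells of the fibroblast plate. Its score was the summed share of those gene reads on Acta2, Tagln, Cnn1, Myl9 and Tpm2. The 32 wells above the median score are called contractile-high here, and the other 32 wells contractile-low. The members were thus chosen by measured values of these same wells, so values of the 5 score genes describe the split and test nothing.

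The fibroblasts filled 1 of 5 plates in a series of 480 wells with reads, of which the stated design counts 436 as single cells. The other plates held ES R1, an embryonic stem cell line, on 3 plates, and Neuro2A, a neuroblastoma line, on 1 plate. Cells were sorted 1 per well by fluorescence-activated sorting, each well's cDNA received its own barcode during template switching, and the 96 reactions were pooled before PCR. The labels give no genotype, strain, passage or embryonic age for the fibroblasts and name no agent for any group. Both groups of wells came from 1 plate, and the labels do not say from how many cultures or embryos. Wells of 1 plate are not replicates, so only effect sizes are given, and no p-value was computed. Intervals cover counting error of reads alone, with reads pooled over wells and taken as independent, and not the spread between wells. The protocols name no molecular identifiers and PCR copies of 1 molecule count separately, so the intervals can be too narrow.

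Smooth muscle alpha-actin (Acta2) and its partners build contractile stress fibres, and fibroblasts that acquire them are known as myofibroblasts. Their genes are classic targets of serum response factor, which is switched on when its coactivators of the MRTF family are released from monomeric actin. TGF-beta signalling, serum and a stiff substrate are known to raise them, and so are YAP and TAZ with their TEAD partners, which read cell spreading.

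The wells carried fibroblast identity on both sides of the split. All 15 fibroblast markers had reads, and their summed reads per well ran from 42 to 237 in contractile-high wells (median 125), against 16 to 253 in contractile-low wells (median 117.5). The groups overlapped almost fully in that sum. Of 8 mature smooth muscle markers, which include the score gene Cnn1, 6 had reads. Their median was 3.5 summed reads per contractile-high well and 0 per contractile-low well. Cnn1 alone had medians of 1.5 and 0, so part of that difference was fixed by the split. Kcnmb1 and the master regulator Myocd were at 0 in both groups. The 11 macrophage and 10 embryonic stem cell markers had no read in any kept well at the depth of 5000 reads used for these sums. Other lists had scattered reads, with a median of 0 per well in both groups. Pericyte markers (5 of 7 with reads) were read in 12 contractile-high and 13 contractile-low wells, up to 4 reads in the contractile-high and 12 in the contractile-low wells, with Kcnj8 and Abcc9 at 0. Epithelial and mesothelial markers (5 of 10) were read in 4 wells of each group, up to 19 reads in contractile-high and 2 in contractile-low wells, and Cdh1 was at 0. Skeletal and cardiac muscle markers (5 of 14) were read in 4 contractile-high and 9 contractile-low wells, and endothelial markers (1 of 10) in 5 contractile-high wells and 1 contractile-low well. Erythroid markers (5 of 8) were read in 2 wells of each group, up to 2 reads in the contractile-high and 11 in the contractile-low wells. Neuroblastoma markers, 13 of 19 with reads, had a median of 1 summed read per well in contractile-high and in contractile-low wells, with maxima of 34 and 33 and Dbh, Th, Hand1, Elavl3 and Nefl among those at 0.

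Shown are promoters of 2 score genes that differ in exact matches to the motifs below, of Vcl (adhesion gene) and of Actg1 (serum response factor target). They are the RefSeq windows of build GRCm38.p6, from 250 bases before to 50 bases after the annotated start, and 4 of the 5 score genes matched that table by symbol. Capitals mark exact matches, on either strand, to the CArG box bound by serum response factor or to the TEAD motif CATTCC or GGAATG. The windows lie at chr19:34255324-34255623 on the minus strand for Acta2, chr2:156775214-156775513 on the plus strand for Myl9, chr14:20929148-20929447 on the plus strand for Vcl and chr11:120348446-120348745 on the minus strand for Actg1.
Acta2: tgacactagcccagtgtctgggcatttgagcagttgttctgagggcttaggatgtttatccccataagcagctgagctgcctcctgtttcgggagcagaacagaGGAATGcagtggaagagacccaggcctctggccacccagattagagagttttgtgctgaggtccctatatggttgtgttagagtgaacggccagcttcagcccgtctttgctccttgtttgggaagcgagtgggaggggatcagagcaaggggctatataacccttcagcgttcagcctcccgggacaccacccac
Myl9: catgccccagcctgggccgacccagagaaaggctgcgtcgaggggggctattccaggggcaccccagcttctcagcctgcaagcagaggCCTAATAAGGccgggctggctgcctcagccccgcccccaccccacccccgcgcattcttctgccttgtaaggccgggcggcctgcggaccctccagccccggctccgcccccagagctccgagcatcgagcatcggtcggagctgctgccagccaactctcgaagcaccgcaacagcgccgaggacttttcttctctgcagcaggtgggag
Vcl: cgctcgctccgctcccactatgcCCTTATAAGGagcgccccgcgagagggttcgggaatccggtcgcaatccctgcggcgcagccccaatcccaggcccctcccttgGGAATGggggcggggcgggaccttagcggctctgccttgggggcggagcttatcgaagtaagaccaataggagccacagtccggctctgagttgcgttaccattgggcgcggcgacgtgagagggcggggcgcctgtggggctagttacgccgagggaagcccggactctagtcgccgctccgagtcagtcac
Actg1: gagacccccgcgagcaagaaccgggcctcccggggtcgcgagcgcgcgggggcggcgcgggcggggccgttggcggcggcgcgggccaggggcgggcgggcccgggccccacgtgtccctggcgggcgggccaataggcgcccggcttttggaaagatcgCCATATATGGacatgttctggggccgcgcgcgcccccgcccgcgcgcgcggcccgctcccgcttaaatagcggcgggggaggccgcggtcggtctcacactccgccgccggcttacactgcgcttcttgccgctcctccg
The Acta2 window held GGAATG 146 bases before the start and no exact CArG box. It did hold ccctatatgg and ccttgtttgg, each 1 base off an exact CArG box. Such near matches were not searched for or marked, so an unmarked window does not lack CArG-like sites. The Myl9 window held a CArG box 161 bases before the start, and that of Actg1 1 at 90 bases. The Vcl window held both, the CArG box 227 and GGAATG 143 bases before the start, and the motifs did not overlap. Of 32851 mouse promoter windows of 300 bases, 1.63% held an exact CArG box and 14.7% held CATTCC or GGAATG. A match describes letters, and says nothing of binding in these cells.

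The score formed a continuum without a gap. It ran from 0.341% to 1.28% of gene reads in contractile-high wells (median 0.560%) and from 0% to 0.337% in contractile-low wells (median 0.214%). The 3 wells just inside the high group scored 0.341%, 0.355% and 0.356%, and the 3 just outside scored 0.337%, 0.322% and 0.321%. Wells near the middle were thus almost alike, and the split cut a range rather than 2 populations. On the whole fibroblast plate the 5 genes took 0.496% of gene reads, against 0.00658% in Neuro2A and 0%, 0.00289% and 0.0886% on the ES R1 plates.

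Acta2 supplied 62.6% of the score reads of the kept wells, so the split was mostly an Acta2 split. After every well was thinned at random to 5000 gene reads, Acta2 had 5 to 42 reads per contractile-high well (median 15.5), against 0 to 19 per contractile-low well (median 6). Myl9, the regulatory light chain of smooth muscle myosin, had 0 to 23 reads per contractile-high well (median 2) and 0 to 6 per contractile-low well (median 1). The ranges of both genes overlapped between the groups even though the genes built the score. Tagln, the actin-binding protein transgelin, summed to 74 reads over the contractile-high wells and 22 over the contractile-low wells. Cnn1, calponin, summed to 77 and 23, and Tpm2, a tropomyosin, to 61 and 34.

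The 5 score genes were only loosely coupled. Over the 64 wells, which share a plate and a PCR and differ in depth, Spearman's correlation between the shares of any pair ran from 0.107 (Acta2 with Myl9) to 0.467 (Tagln with Myl9). When wells were split by the other 4 genes, Acta2 averaged 28.4 per 10000 gene reads in the upper wells and 23.4 in the lower wells, a ratio of 1.22. By the same procedure the ratio was 1.11 for Cnn1, 1.76 for Myl9, 1.79 for Tpm2 and 2.56 for Tagln. A split without Acta2 shared 22 of its 32 upper wells with the contractile-high group, and a split on the mean rank of the 5 genes shared 23 of 31. Which wells counted as high thus depended in part on Acta2.

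**Figure D1:**
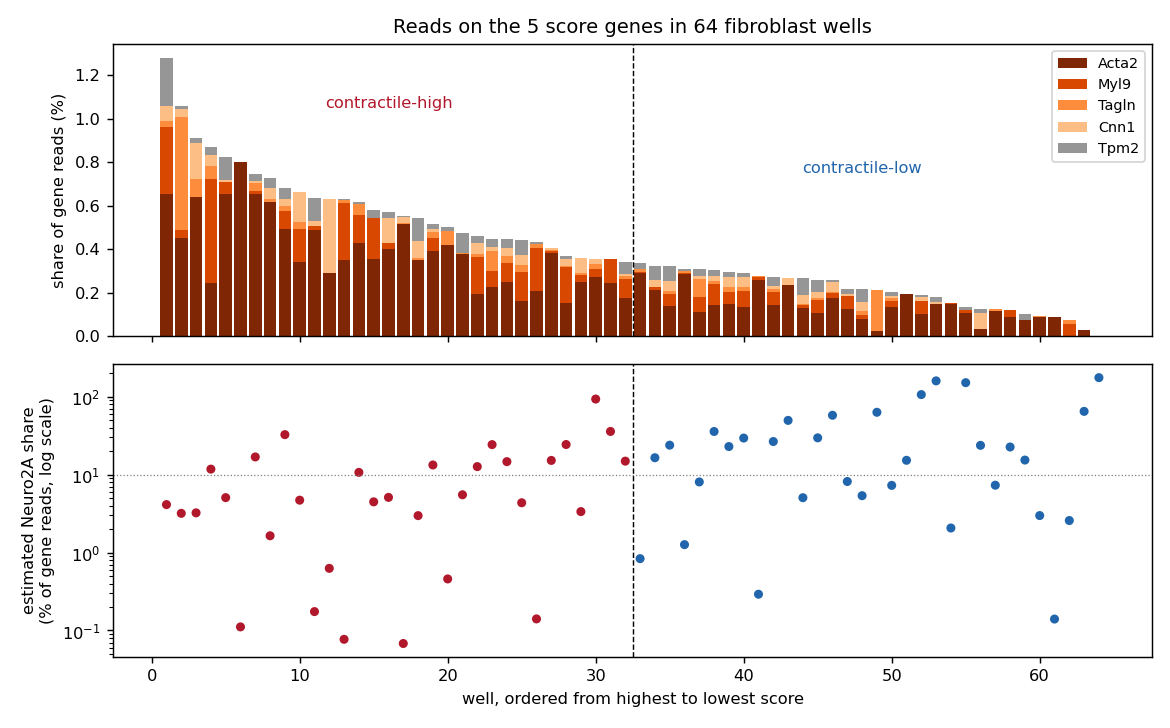
Top, share of gene reads (%) on each of the 5 score genes in the 64 kept wells, ordered from highest to lowest score, with the dashed line between contractile-high (left) and contractile-low wells (right). Bottom, estimated Neuro2A share of each well on a log scale, with the dotted line at 10%; the median was 4.87% in contractile-high and 19.5% in contractile-low wells.

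Several technical measures moved with the split. The median well held 52776 gene reads in the contractile-high group and 16090 in the contractile-low group, and Spearman's correlation between score and depth was 0.466 over 64 wells. Repeats took a median of 16.8% of reads in contractile-high and 31.0% in contractile-low wells, mitochondrial genes 10.9% and 9.16%, and barcodes ending in G marked 9 and 12 wells. At 5000 reads the median well held 1233.5 genes in the contractile-high and 1290.5 in the contractile-low group. All plates used the same 96 barcodes. Over all 96, reads of 135 Neuro2A genes on the fibroblast plate followed those on the Neuro2A plate (Spearman's correlation 0.554). Total gene reads of both plates also correlated by barcode, at 0.433. The 135 genes were chosen as high against ES R1, not against fibroblasts, so some of these reads may be the fibroblasts' own. A well's Neuro2A share was estimated as 9.45% of the Neuro2A plate's gene reads at its barcode, over its own gene reads. The 9.45% is the median, over the 135 genes, of fibroblast-plate reads relative to Neuro2A-plate reads. Reads of these genes in the single well do not enter its estimate. The estimated share exceeded 50% in 1 contractile-high and 7 contractile-low wells. The estimate passed 100% in some shallow wells, up to 175%, so it ranks wells rather than measuring a fraction. Spearman's correlation between score and this estimate was -0.395 over the 64 wells. A well's own gene reads are the denominator of the estimate, and score rose with them, so this correlation is not separate from depth. The numerator differed less between the groups than the depth did. Median gene reads of the Neuro2A plate at the same barcodes were 30996 for contractile-high and 36406.5 for contractile-low wells. The part of depth and of Neuro2A reads in the differences below was not tested as a cause, and values are therefore also given for wells under 10% Neuro2A (16 against 16, split at their own median), with Neuro2A reads subtracted, or with the split made within depth classes, that is, separately in the deeper and the shallower wells. For a named gene, an alternative of these 3 that moves the ratio across 1.5-fold is stated beside it. The wells under 10% Neuro2A were also deeper. Their median gene reads were 81341 (high) and 67125 (low), against 26070.5 over the 64 kept wells.

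Outside the score, 2044 genes had a mean of at least 0.5 thinned reads per well and reads in at least 10 wells. Ratios are means per well, contractile-high over contractile-low, with 0.1 added to each mean. Past 1.5-fold, 527 genes (25.8%) were higher and 524 (25.6%) lower in contractile-high wells, with a median log2 ratio of 0.04. With so many genes past the threshold each way, the count for any gene list has to be read against these shares. Of the 527 higher genes, 179 stayed past 1.5-fold in each of 6 checks: another random draw, no thinning, Neuro2A subtraction, wells under 10% Neuro2A, the split within depth classes, and the highest well of each group left out. Of the 524 lower genes, 159 did.

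**Figure D2:**
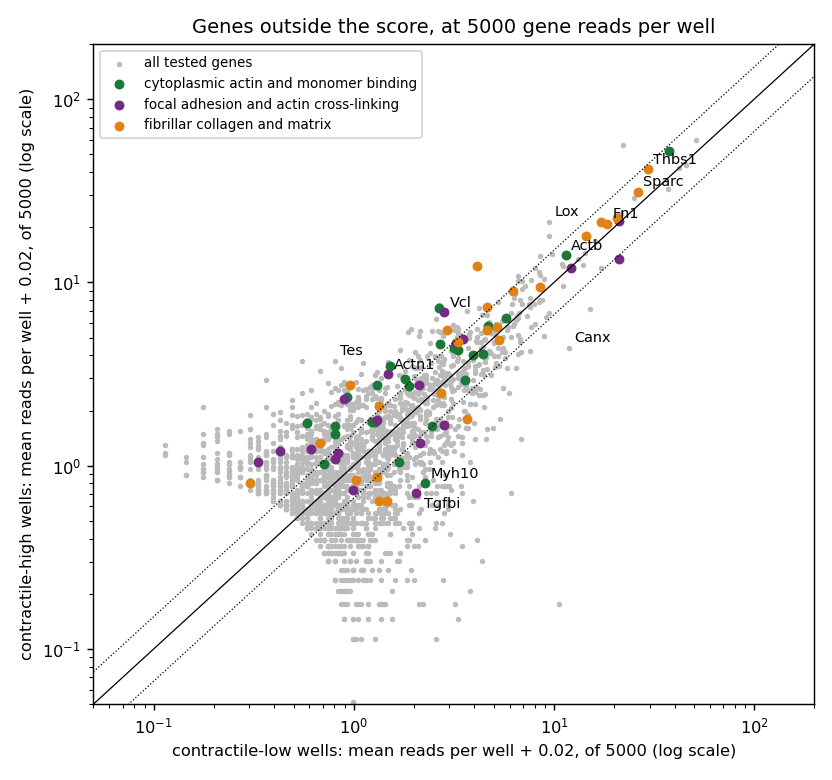
Mean thinned reads per well (log scales, 0.02 added for display) of the tested genes, in contractile-high wells on the vertical and contractile-low wells on the horizontal axis, with dotted lines at 1.5-fold and 3 gene lists in colour. Vcl, Tes, Actn1 and Lox lay above the upper line, Canx, Myh10 and Tgfbi below the lower line, and Actb, Fn1 and Sparc between them.

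Smooth muscle contractile genes outside the score went both ways. Of 34 such genes, 28 were in the file and 14 passed the filter on low reads. Of those 14, 4 (28.6%) were higher past 1.5-fold and 3 (21.4%) lower, shares close to those of all genes tested (25.8% and 25.6%), with a median log2 ratio of 0.33. That median was positive in 17 of 18 alternative settings, which re-use the same wells, and more members were higher than lower in 15. Among the 4 higher genes were Actg2, smooth muscle gamma-actin, Csrp1, a LIM protein of actin filaments, and Crip1, a small LIM protein. Actg2 was read in 10 contractile-high wells (0 to 10 reads, median 0) and 5 contractile-low wells (0 to 3 reads, median 0), at a ratio of 5.13 (95% exact binomial interval of the count ratio 3.17 to 18.4). Most wells of both groups had no Actg2 read, and how reads that align to both Actg2 and Acta2 were counted is not given. Csrp1 had a ratio of 3.06, on 31 reads in contractile-high and 8 in contractile-low wells. In wells under 10% Neuro2A the ratio was 2.24 for Actg2 and 3.40 for Csrp1.

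Tropomyosin and calponin relatives did not pass 1.5-fold upward. Tpm1, a tropomyosin gene, had 4 to 137 reads per contractile-high well (median 25.5) and 2 to 64 per contractile-low well (median 24). The groups overlapped over nearly their whole range, and the ratio was 1.15, within 1.03 to 1.58 over 18 alternative settings. Cnn2 and Cnn3, calponins outside smooth muscle, had ratios of 1.31 and 1.43, but Cnn3 passed 1.5-fold in 11 of the 18 settings, at 1.88 in wells under 10% Neuro2A, 1.70 with subtraction and 1.73 within depth classes. Cnn2 was 1.62 with subtraction and 0.93 in wells under 10% Neuro2A. Tpm4 had a ratio of 1.21, Tagln2 1.02 and Fhl1 1.00. On the lower side were Tpm3 (ratio 0.34), Myl6, the essential light chain of non-muscle and smooth muscle myosin (0.51), and Cald1, caldesmon (0.54). Cald1 rested largely on 1 contractile-low well with 87 of the 207 contractile-low reads, and its ratio was 1.02 in wells under 10% Neuro2A.

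Among genes of focal adhesions and actin cross-linking, 6 (31.6%) of 19 tested were higher and 4 (21.1%) lower, shares near the 25.8% and 25.6% of all genes, with a median log2 ratio of 0.43. The genes below describe single members, not the list. Vinculin (Vcl), which links talin to actin at adhesions, had 0 to 33 reads per contractile-high well (median 6), against 0 to 11 per contractile-low well (median 2). The ranges overlapped, but 25 of 32 contractile-high wells lay above the contractile-low median, against 14 of 32 contractile-low wells. The ratio was 2.39 (interval 1.90 to 3.16), and it was 1.74 in wells under 10% Neuro2A, 1.64 with Neuro2A reads subtracted and 2.59 within depth classes. Over 18 settings Vcl stayed between 1.41 and 3.70.

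Alpha-actinin 1 (Actn1), which cross-links stress fibres, had 0 to 26 reads per contractile-high well (median 2) and 0 to 17 per contractile-low well (median 0). It was read in 24 contractile-high and 14 contractile-low wells, at a ratio of 2.06. That ratio was between 1.73 and 1.84 in low-Neuro2A wells, with subtraction and within depth classes, but the direction turned in a split without Acta2, to a log2 ratio of -0.13. Zyxin (Zyx), a mechanosensitive LIM protein of stress fibres and adhesions, was read in 18 contractile-high and 17 contractile-low wells, with up to 14 and 5 reads and a ratio of 2.45. Wells with a Zyx read were about as frequent in both groups.

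Tes, testin, a zyxin partner outside the list, had 0 to 34 reads per contractile-high well (median 1) and 0 to 7 per contractile-low well (median 0). It summed to 119 reads (Poisson interval 98.6 to 142) in contractile-high wells and 25 (16.2 to 36.9) in contractile-low wells, a ratio of 4.35. It had no read in Neuro2A, and its ratio was 3.21 in wells under 10% Neuro2A. Other adhesion genes past 1.5-fold included Itga5, the fibronectin receptor subunit (1.91), and Ilk, integrin-linked kinase (2.75). Flna, filamin A, at 1.43 and Itgb1, the shared beta subunit, at 0.99 were not. Itgb1 was read in 30 contractile-high and 29 contractile-low wells. Iqgap1, a scaffold of the cell cortex, was lower at 0.37, and Rsu1, an inhibitor of Ras signalling that binds the integrin-linked kinase complex, at 0.26.

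**Figure D3:**
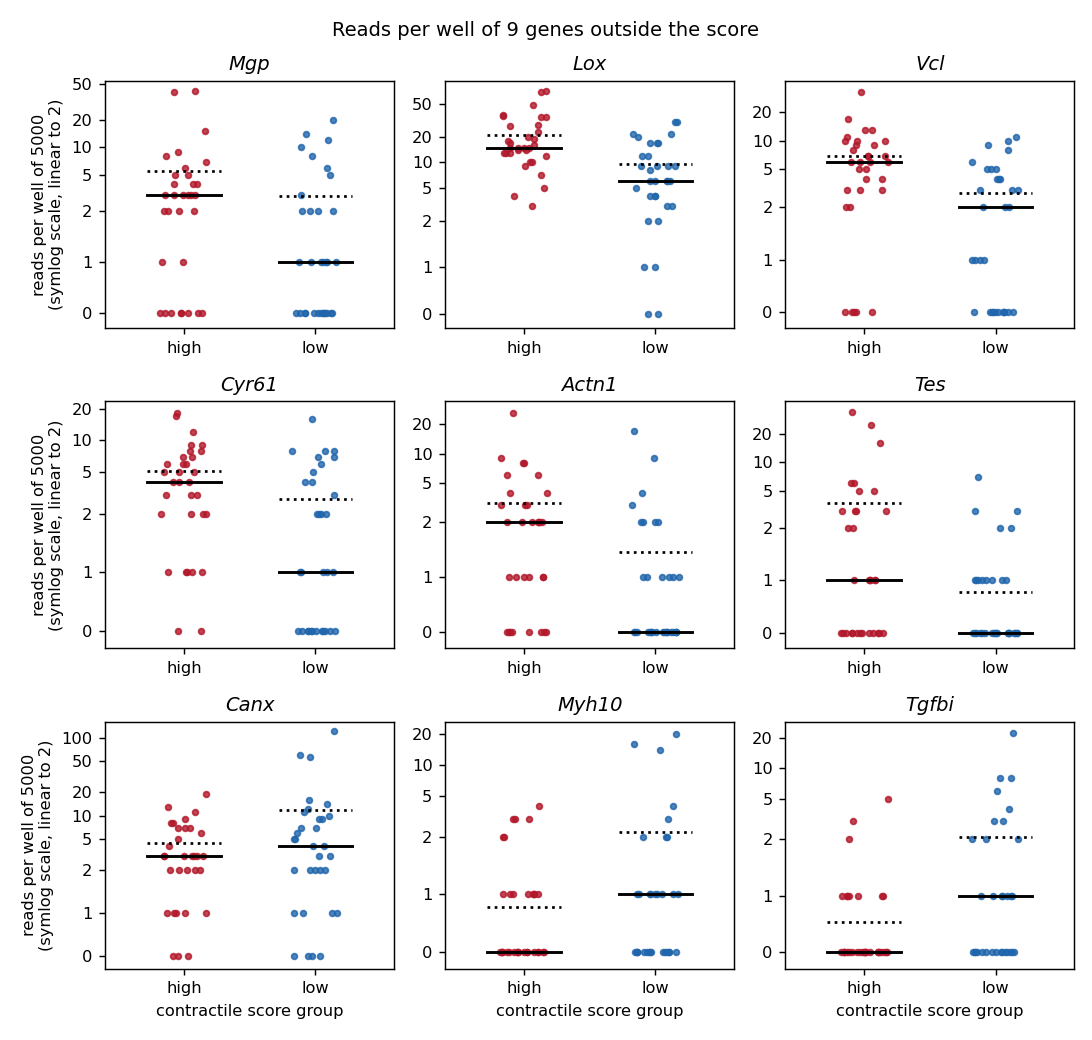
Thinned reads per well (of 5000; symmetric log scale, linear up to 2) of 9 genes outside the score in 32 contractile-high wells (left, red) and 32 contractile-low wells (right, blue), with solid lines at medians and dotted lines at means. Vcl has medians of 6 and 2 and Lox of 15 and 6, while Tgfbi and Myh10 have medians of 0 in contractile-high and 1 in contractile-low wells, and the groups overlap in all 9 panels.

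Cytoplasmic actin and monomer-binding genes leaned upward more often than downward. Of 25 tested, 9 (36.0%) were higher and 2 (8.00%) lower, against 25.8% and 25.6% of all genes, with a median log2 ratio of 0.47. More members were higher than lower in all 18 settings, which re-use the same wells. The same held for the serum response factor and YAP, TGF-beta, fibrillar matrix and collagen-processing lists. It held in 17 settings for focal adhesion and in 15 for the contractile list outside the score. Over all genes the higher share also exceeded the lower in some settings, such as 31.8% against 21.7% in wells with at least 1000 reads. The cytoplasmic actins themselves did not pass 1.5-fold. Actb, beta-actin, had 1 to 44 reads per contractile-high well (median 12) and 2 to 73 per contractile-low well (median 8.5), a ratio of 1.24 that was 0.93 in wells under 10% Neuro2A. Actg1, whose promoter holds the CArG box shown above, had a ratio of 1.42. It lay between 1.09 and 2.42 over the 18 settings and passed 1.5-fold in 7.

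The monomer binders and severing factors differed more. Tmsb10, a thymosin that sequesters actin monomers, was read in 22 contractile-high and 16 contractile-low wells, with 75 and 29 reads and a ratio of 2.44. In wells under 10% Neuro2A its ratio was 2.86. Tmsb4x, its abundant relative, had 9 to 162 reads per contractile-high well (median 43) and 2 to 86 per contractile-low well (median 36.5), a ratio of 1.38. Gsn, gelsolin, which severs and caps filaments and had no read in Neuro2A, had a ratio of 1.96, and 3.22 in wells under 10% Neuro2A. Dstn, destrin, had the ratio 2.67 with 65 of its 231 contractile-high reads in 1 well, and 0.89 in wells under 10% Neuro2A.

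Filament-capping Capzb was read in 26 contractile-high and 13 contractile-low wells, at a ratio of 1.69, which was 1.12 with subtraction and 1.26 within depth classes. Arpc5, a subunit of the Arp2/3 nucleator, had 2.07, and 1.22 in wells under 10% Neuro2A. Wdr1, a cofilin cofactor, had 1.62, but 1.09 in wells under 10% Neuro2A and 1.16 with subtraction. Rhob, a small GTPase, had 2.71, and 2.14 in wells under 10% Neuro2A. Profilin (Pfn1) at 1.12, cofilin (Cfl1) at 0.68 and non-muscle myosin Myh9 at 1.02 did not pass 1.5-fold. The other non-muscle myosin heavy chain, Myh10, was lower: it had 0 to 4 reads per contractile-high well (median 0) and 0 to 20 per contractile-low well (median 1). Its ratio was 0.38, and 0.47 in wells under 10% Neuro2A, and 3 contractile-low wells held most of its reads. Actr2, another Arp2/3 subunit, was also lower, at 0.65.

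Among lists with at least 10 tested genes, targets of serum response factor and YAP had the largest share on the higher side. Against 25.8% higher and 25.6% lower over all genes, 7 (53.8%) of these 13 tested targets were higher and 0 lower. Their median log2 ratio was 0.61, but it moved from 0.01 to 1.38 over the settings, and the count higher from 3 to 8. Averaged over 20 random draws, 4 of the 13 were higher and 1 lower, and with Neuro2A reads subtracted 3 of 12 were higher with a median of 0.01. The list shares Vcl and Zyx with the adhesion list. Cyr61, now named Ccn1, a secreted matricellular protein and standard YAP target, had 0 to 18 reads per contractile-high well (median 4), against 0 to 16 per contractile-low well (median 1). It was read in 30 contractile-high and 20 contractile-low wells. The ratio was 1.80 (interval 1.40 to 2.39), 1.98 in wells under 10% Neuro2A and 2.18 within depth classes, but 1.27 with subtraction.

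Its relative Ctgf, now Ccn2, did not pass 1.5-fold, with 0 to 23 reads per contractile-high well (median 4.5) and 0 to 21 per contractile-low well (median 4), a ratio of 1.12. Thbs1, thrombospondin 1, which can activate latent TGF-beta, had 6 to 89 reads per contractile-high well (median 38) and 3 to 109 per contractile-low well (median 21), a ratio of 1.41. Thbs1 was read in every well of both groups. Junb, a subunit of the AP-1 factor, passed 1.5-fold through 1 contractile-high well with 38 of 53 reads, and Amotl2, a YAP inhibitor that is itself a YAP target, had 34 contractile-high and 12 contractile-low reads. The ratios of Junb and Amotl2 were 2.79 and 2.46, and they were 0.71 and 0.66 in wells under 10% Neuro2A. With subtraction Amotl2 was at 0.87.

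Genes of the TGF-beta pathway and its targets were higher in 8 (42.1%) of 19 tested and lower in 3 (15.8%), with a median log2 ratio of 0.26. Over all genes these shares were 25.8% and 25.6%. Ltbp1, which stores latent TGF-beta in the matrix, had a ratio of 2.59, Skil, a repressor of SMAD factors induced by the pathway, 1.80, and Cdh11, the mesenchymal cadherin, 1.64. Ltbp1 and Skil did not keep the fold in wells under 10% Neuro2A, at 1.27 and 1.03, nor Skil with subtraction, at 1.31, while Cdh11 did, at 1.73.

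The list also held genes on the lower side. Tgfbi, a secreted adhesion protein named for its induction by TGF-beta, had 0 to 5 reads per contractile-high well (median 0), against 0 to 22 per contractile-low well (median 1). It was read in 10 contractile-high and 17 contractile-low wells and had no read in Neuro2A. Its ratio was 0.29 (interval 0.14 to 0.44), 0.28 in wells under 10% Neuro2A and 0.33 within depth classes. Smad4, the shared SMAD of the pathway, had a ratio of 0.39.

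**Figure D4:**
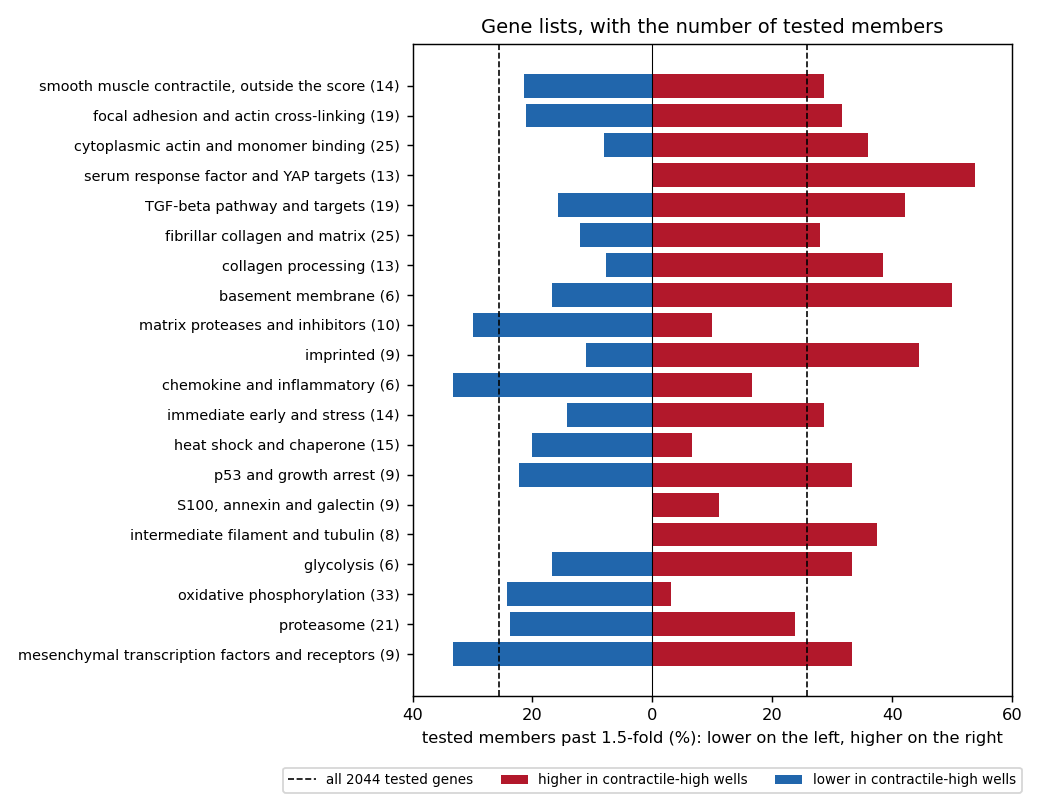
Percent of tested members past 1.5-fold in each gene list, higher in contractile-high wells to the right (red) and lower to the left (blue), with dashed lines at the shares of all 2044 tested genes, 25.8% and 25.6%. Serum response factor and YAP targets reach 53.8% higher and 0% lower, and the contractile list outside the score lies at 28.6% and 21.4%.

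The main structural matrix genes had similar levels in both groups. Of 25 fibrillar collagen and matrix genes tested, 7 (28%) were higher and 3 (12%) lower, against 25.8% and 25.6% of all genes. Col1a1 had 2 to 51 reads per contractile-high well (median 14) and 0 to 55 per contractile-low well (median 10.5), a ratio of 1.25. Col1a2 had a ratio of 1.09, Col3a1 1.20, fibronectin (Fn1) 1.14, Sparc 1.20 and the intermediate filament vimentin (Vim) 1.10. None of these 6 genes passed 1.5-fold.

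Other matrix genes passed it. Fbln2, fibulin 2, had 393 reads in contractile-high and 132 in contractile-low wells, of which 1 contractile-high well held 234. Its ratio was 2.94, and 1.56 with the highest well of each group left out. Mgp, matrix Gla protein, had 0 to 41 reads per contractile-high well (median 3) and 0 to 20 per contractile-low well (median 1), a ratio of 1.87, and 2.29 in wells under 10% Neuro2A. Col5a1, a chain that nucleates collagen fibrils, had a ratio of 2.73. Col11a1, of the same fibril family, was lower at 0.47.

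Collagen-processing enzymes were higher in 5 (38.5%) of 13 tested and lower in 1 (7.69%), against 25.8% and 25.6% of all genes. Lysyl oxidase (Lox), which cross-links collagen and elastin, had 3 to 72 reads per contractile-high well (median 15) and 0 to 30 per contractile-low well (median 6). Of the contractile-high wells 29 lay above the contractile-low median, against 15 contractile-low wells, and Lox had no read in Neuro2A. The ratio was 2.27 (interval 1.99 to 2.62), 1.46 in wells under 10% Neuro2A, 1.77 within depth classes, and 1.17 to 3.38 over the settings. P4ha1, a prolyl hydroxylase of collagen, had a ratio of 2.87. In the basement membrane list, 3 (50%) of 6 tested were higher and 1 (16.7%) lower, against the same shares of all genes. Nidogen 1 (Nid1) and laminin gamma 1 (Lamc1) were both at 3.10. In wells under 10% Neuro2A, Nid1 had 3.77 and Lamc1 1.31.

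Of 10 matrix proteases and inhibitors tested, 1 (10%) was higher past 1.5-fold and 3 (30%) lower, against 25.8% and 25.6% of all genes. The higher one was Mmp2, a gelatinase secreted by fibroblasts. It had 0 to 11 reads per contractile-high well (median 1) and 0 to 5 per contractile-low well (median 0). It was read in 17 contractile-high and 9 contractile-low wells. Its ratio was 3.85 (interval of the count ratio 2.61 to 7.56), and 3.08 in wells under 10% Neuro2A.

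By size of ratio, 15 genes each way were named from those read in at least 20 wells and still past 1.5-fold without the highest well of each group. The higher ones, in order of ratio, were Rpo1-3 (now Polr1d), Phc2, Snx9, Tes, Mmp2, Trp53inp2, Bdnf, Eef1e1, LOC100043039, Suclg1, 9530068E07Rik, Gspt1, Fndc3b, Rps15 and LOC100039695, with ratios from 6.80 to 3.11. Rpo1-3, a subunit of RNA polymerases I and III, had 0 to 35 reads per contractile-high well (median 0.5) and 0 to 3 per contractile-low well (median 0). Bdnf, the neurotrophin, which fibroblasts also express, had 108 reads in 13 contractile-high wells and 27 reads in 7 contractile-low wells. Gspt1, a translation release factor, had a ratio of 3.17. Rps15 is a ribosomal protein gene whose reads may be shared with pseudogenes.

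The lower ones were Psap, Sfrs2 (now Srsf2), Pbrm1, Tceb1 (now Eloc), Gnl3l, Zfp91, Tpp1, Pappa, Rsu1, Npepps, Wsb2, Mki67ip (now Nifk), Psmb1, Tgfbi and Xpo1, with ratios from 0.16 to 0.29. Psap, the precursor of the lysosomal saposins, had 0 to 3 reads per contractile-high well and 0 to 31 per contractile-low well, with medians of 0 in both. Tpp1, a lysosomal protease, had a ratio of 0.25, and Pappa, a secreted protease of insulin-like growth factor binding proteins, also 0.25. Of the 30 genes, 15 kept their direction in all 18 settings, and 7 stayed past 1.5-fold in all of them: Rpo1-3 on the higher side, and Psap, Gnl3l, Zfp91, Rsu1, Npepps and Psmb1 on the lower side. The 18 settings are not separate tests. A score without Tagln gave the same 32 upper wells and so repeats the main values. Another random draw, thinning to 2000 reads, no thinning and the mean over 20 draws also kept the split. In wells under 10% Neuro2A the ratio was 1.47 for Trp53inp2, 0.61 for Suclg1, 0.95 for 9530068E07Rik, 2.68 for Pbrm1 and 1.08 for Xpo1. Within depth classes it was 1.42 for Trp53inp2, 0.59 for Suclg1 and 0.79 for Tceb1, and with subtraction 0.94 for Suclg1. Psmb1 is a proteasome subunit, but of 21 proteasome genes tested 5 were higher and 5 lower. Each is a share of 23.8%, near the 25.8% and 25.6% of all genes.

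The most heavily read gene that was stably lower was Canx, calnexin, the membrane chaperone of the endoplasmic reticulum. It had 0 to 19 reads per contractile-high well (median 3) and 0 to 124 per contractile-low well (median 4). The medians were close, and a few contractile-low wells carried the difference. Its ratio was 0.38 (interval 0.30 to 0.45), 0.48 with the highest well of each group left out and 0.28 in wells under 10% Neuro2A. Canx had 1043 CPM on the fibroblast plate and 2044 CPM on the Neuro2A plate. Of 15 heat shock and chaperone genes tested, 1 (6.67%) was higher and 3 (20%) lower, against 25.8% and 25.6% of all genes.

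**Figure D5:**
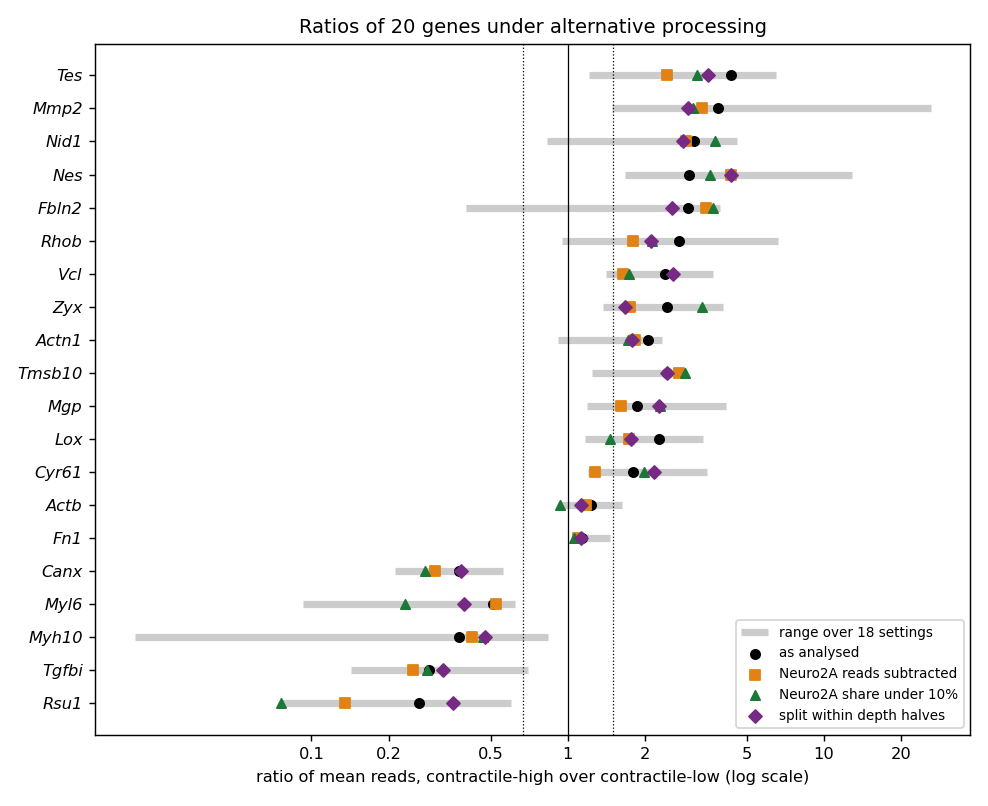
Ratio of mean thinned reads, contractile-high over contractile-low (log scale), of 20 genes outside the score, chosen after their values were seen, as analysed (black) and under 3 alternatives that bear on Neuro2A reads and depth, with grey bars over 18 settings. Vcl, Zyx and Mmp2 stay above 1 and Canx, Myl6 and Rsu1 below 1 in every setting, while Fbln2, Nid1, Actn1 and Rhob cross 1.

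Over all kept wells, genes with no Neuro2A read and genes with more CPM in Neuro2A than in the fibroblasts leaned opposite ways. Among 143 tested genes with no read in Neuro2A, 37.8% were higher and 16.8% lower, against 25.8% and 25.6% of all genes. Their median log2 ratio was 0.37. Among 839 genes with more CPM in Neuro2A than in the fibroblasts, 18% were higher and 35.3% lower, with a median of -0.23. Tested genes outside both classes were not summarised. In wells under 10% Neuro2A these medians were 0.28 over 56 genes and -0.06 over 329 genes. Of the 56 genes 33.9% were higher and 28.6% lower there, and of the 329 genes 24.0% and 30.1%. All genes tested in those wells had 24.5% and 28.3%, so the contrast on the lower side was small. In those wells the median log2 ratios of the lists were 0.02 for the contractile genes outside the score, 0.21 for focal adhesion and 0.21 for cytoplasmic actin. They were 0.39 for serum response factor and YAP targets, 0.21 for TGF-beta, 0.14 for fibrillar matrix and 0.43 for collagen processing. Over all 64 wells fibrillar matrix had 0.26 and collagen processing 0.41, and the other medians are given above. Each list median was smaller in wells under 10% Neuro2A than over all 64 wells, except for collagen processing, which was nearly unchanged. The background in those wells was 24.5% of genes higher and 28.3% lower. Against it, 1 of 11 contractile genes outside the score was higher and 2 lower, 7 of 18 adhesion genes were higher and 4 lower, and 7 of 24 cytoplasmic actin genes were higher and 2 lower. For serum response factor and YAP targets 4 of 9 were higher and 2 lower, for TGF-beta 3 of 11 and 1, for fibrillar matrix 4 of 19 and 3, and for collagen processing 2 of 6 and 0.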

How the data were processed

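The deposited files hold raw hit counts per feature and barcode for each plate, per the readme deposited with the series, and were used as counts. Per the submitters' processing notes, Bowtie was used. Its version, the genome build, the annotation and the handling of reads with several positions are not given. No molecular identifiers are named in the labels' protocols. Gene reads on the fibroblast plate numbered 2932933, and 277068 to 11434036 on the other 4 plates. Each of the 64 kept wells was thinned without replacement to 5000 gene reads (seed 1). Reads outside the 5 score genes were scaled to a common total, and a gene was compared when it had a mean of at least 0.5 reads per well and reads in at least 10 wells. Ratios add 0.1 to each mean. Genes past 1.5-fold were counted each way, with exact binomial 95% intervals for the ratio of counts and exact Poisson intervals for sums.

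The 135 Neuro2A genes had at least 100 CPM in Neuro2A and at least 10 times the level in ES R1. Their reads on the fibroblast plate were a median of 9.45% of those on the Neuro2A plate. A well's Neuro2A share was estimated as this percentage of the Neuro2A plate's gene reads at the same barcode, over the well's own gene reads. Subtraction removed 9.45% of the Neuro2A plate's reads of each gene at the same barcode. The members and the gene lists were chosen with earlier results of these data known. Genes were named as the 15 largest ratios each way among those read in at least 20 wells and past 1.5-fold without the highest well of each group, and as members of the lists. Genes outside this rule were chosen after their values were seen, and some genes that met it are not reported here. The alternatives were depth, threshold, filter, random draw, score definition, barcode and Neuro2A settings, and 3 of them (wells under 10% Neuro2A, the split within depth classes and the mean over 20 draws) were added after the data were seen. The procedure was tested on simulated data. Promoters are from RefSeq, build GRCm38.p6. Computation used scipy 1.17.1, pandas 2.3.3 and numpy 2.4.6 under Python 3.11.15, and figures matplotlib 3.10.9.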

Additional observations from a re-analysis of the deposited data

How the results depend on the processing

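Depth, estimated Neuro2A share and repeat share differed between the groups, and a single plate gives no replicate. The cause of the changes below was not tested. No paired analysis was possible because both groups are wells of 1 plate. The counts of 527 higher and 524 lower genes changed by more than 1.5 times under these settings: 267 lower with wells of at least 1000 reads, 316 higher and 228 lower between the 16 highest and 16 lowest wells, and 331 lower without barcodes ending in G. They were 70 higher and 83 lower at a mean of at least 2 reads, 2533 and 2749 without a filter, 290 and 301 at 2-fold, and 240 and 278 in wells under 10% Neuro2A. The contractile list outside the score, 4 higher and 3 lower, had 0 higher at a mean of at least 2 reads, 8 higher and 6 lower without a filter, and 1 higher in wells under 10% Neuro2A. It had 1 lower with a mean rank score, with a score without Acta2, and at 2-fold. The log2 ratio changed sign for some genes named in the text. With Neuro2A reads subtracted it was -0.0837 for Suclg1 and -0.205 for Amotl2. Without barcodes ending in G it was -0.227 for LOC100043039. In the 16 highest against the 16 lowest wells it was 0.186 for Mki67ip. With a mean rank score it was -0.832 for Phc2, -0.416 for Snx9, -1.57 for Eef1e1, -0.275 for LOC100043039, -0.798 for Suclg1, -0.664 for LOC100039695, 0.319 for Tpp1, -0.0933 for Ilk, -1.93 for Junb, -0.239 for Ltbp1 and -1.17 for Fbln2. With a score without Acta2 it was -0.363 for Phc2, -0.499 for Snx9, -0.181 for Bdnf, -1.87 for Eef1e1, -0.357 for LOC100043039, -0.330 for LOC100039695, 0.235 for Tpp1, -0.128 for Actn1, -0.529 for Ilk, 0.969 for Cald1, -0.0705 for Rhob, -1.47 for Junb, -0.384 for Ltbp1, -1.31 for Fbln2, -0.171 for P4ha1 and -0.188 for Grb10. With a score without Cnn1 it was -0.160 for Trp53inp2. With a score without Myl9 it was -0.555 for Suclg1. With the split within depth classes it was -0.767 for Suclg1. In wells with at least 1000 reads it was 1.70 for Tceb1, -0.586 for Amotl2 and -0.270 for Nid1. In wells with at least 10000 reads it was 0.382 for Sfrs2 and -0.251 for Col5a1. In wells under 10% Neuro2A it was -0.703 for Suclg1, -0.0691 for 9530068E07Rik, 1.42 for Pbrm1, 0.116 for Xpo1, 0.0266 for Cald1, -0.162 for Dstn, -0.497 for Junb and -0.604 for Amotl2.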

Other observations

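Nes, nestin, an intermediate filament protein of progenitor and reactive cells, had 0 to 23 reads per contractile-high well (median 1) and 0 to 8 per contractile-low well (median 0). Its ratio was 2.97 and stayed past 1.5-fold in the same direction in all 18 settings, from 1.67 to 12.9. Nes was the only one of 10 neural and Schwann cell markers with a read in the kept wells at 5000 reads. Grb10, an imprinted inhibitor of insulin receptor signalling with no read in Neuro2A, was read in 25 wells of each group, with a ratio of 1.90. The direction of Grb10 turned in a split without Acta2. Fgfr1, a fibroblast growth factor receptor, had a ratio of 2.74, and 1.73 in wells under 10% Neuro2A but 1.25 with Neuro2A reads subtracted.

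The interferon-related Ifitm3, a membrane protein that restricts virus entry, was read in 23 contractile-high and 12 contractile-low wells, at a ratio of 3.03, and 1.42 in wells under 10% Neuro2A. The MHC class I gene H2-K1 went the other way, with 11 reads in contractile-high and 28 in contractile-low wells and a ratio of 0.46. H2-K1 had 63 CPM on the fibroblast plate and 560 CPM on the Neuro2A plate. Its ratio was 0.32 with Neuro2A reads subtracted and 0.15 in wells under 10% Neuro2A. Oxidative phosphorylation genes were higher in 1 (3.03%) of 33 tested and lower in 8 (24.2%), with a median log2 ratio of -0.07. Over all genes 25.8% were higher, and the lower share was near the 25.6% of all genes. Sdhb, a subunit of succinate dehydrogenase, was at 0.44. In a split without Acta2 the same list had 9 higher and 3 lower, where 26.6% of all genes were higher and 23.1% lower. The proteasome gene Psmc2 had a ratio of 0.37, but 0.80 with Neuro2A reads subtracted and 0.72 in wells under 10% Neuro2A.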
